A study of Rattus norvegicus with 23 samples.

Results

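NRK-52E and NRK-49F, a pair of cell lines from normal rat kidney that the labels call epithelial cells and fibroblasts, were compared with each other at pH 7.4, the control condition of an acidosis experiment. The comparison takes the 12 samples at pH 7.4 out of the 23 rat samples that could be matched to a label, 6 of NRK-52E and 6 of NRK-49F. The rule used only the line and the pH of each sample and no measured value. The stated protocol was the same for both lines, with 24 h of serum starvation followed by 48 h at pH 7.4 in the same medium. No other treatment is named in the labels, and poly(A) RNA was sequenced. Whether the lines were grown and processed side by side is not given, and they have no sample group in common, as described at the end. The remaining 11 samples (6 of NRK-52E, 5 of NRK-49F) had the same starvation and were held at pH 6.0, and they serve at the end to see whether a difference between the lines was also found there and whether its size depended on pH. Each line is 1 immortal culture, so the comparison describes these lines and not kidney epithelium and kidney fibroblasts in general. The labels do not say whether samples of a line came from separate cultures, so the p-values measure the spread between these samples, which may be technical.

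Epithelial cells of the nephron are held together by cadherins, tight junctions and desmosomes. They rest on a basement membrane of laminins and type IV collagen, and carry transporters that are typical of their segment. Fibroblasts of the renal interstitium lack tight junctions and desmosomes, express receptors such as those for PDGF, and make fibrillar collagens, fibronectin and proteoglycans. Mesothelial cells, which line the body cavities and cover organs, are a further type with junctions and keratins, but with mesothelin, uroplakin 3b and WT1 as marks of their own. Levels are given as FPM (counts per 1000000, scaled between libraries by TMM), which do not correct for gene length, so a level is compared only with the level of the same gene in another sample. Means are given ± SD over n = 6 samples a line. Log2 differences are NRK-52E minus NRK-49F ± SE, from edgeR's quasi-likelihood fit. The fit gives no SE, which was computed as the absolute log2 difference divided by the square root of the test's F statistic.

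The libraries held between 16412564 and 34250535 counts, so that 3 counts, taken as the limit of detection, correspond to 0.0843 to 0.204 FPM. Over 13027 genes, log2(FPM + 1) correlated between samples of NRK-52E with Pearson's r of 0.968 to 0.996 and between samples of NRK-49F with 0.980 to 0.996, but between the lines with 0.751 to 0.812. These correlations are across genes, which are not independent replicates. Ribosomal protein genes took 7.48% ± 1.16 of the counts in NRK-52E and 8.23% ± 1.26 in NRK-49F (p = 0.301 by an exact permutation test, two-sided, and 0.451 when adjusted over 3 shares). The 50 genes with the most counts in each library took 13.96% ± 1.56 and 17.3% ± 0.982 (p = 0.00649 by the same exact test, 0.0195 when adjusted). All 37 mitochondrial genes of the table are listed at 0 in every library, so that no mitochondrial share could be given.

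Each library also held a low level of the genes of the other line. The 10 genes named below as leading in NRK-49F reached, in the NRK-52E libraries, between 0.0211% and 1.21% of their summed NRK-49F level, with the library coded A021 in the labels the highest and A022 next at 0.387%. The 10 leading genes of NRK-52E reached between 0.0531% and 3.28% in the NRK-49F libraries, with A051 the highest and A039 next at 0.764%. In a given library, a level at or under that library's percentage of the level in the other line can therefore not be told apart from this signal, and folds of means are given also without A021 and A051. The libraries are of bulk RNA, in which fewer cells of a kind and less RNA per cell cannot be told apart.

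**Figure D1:**
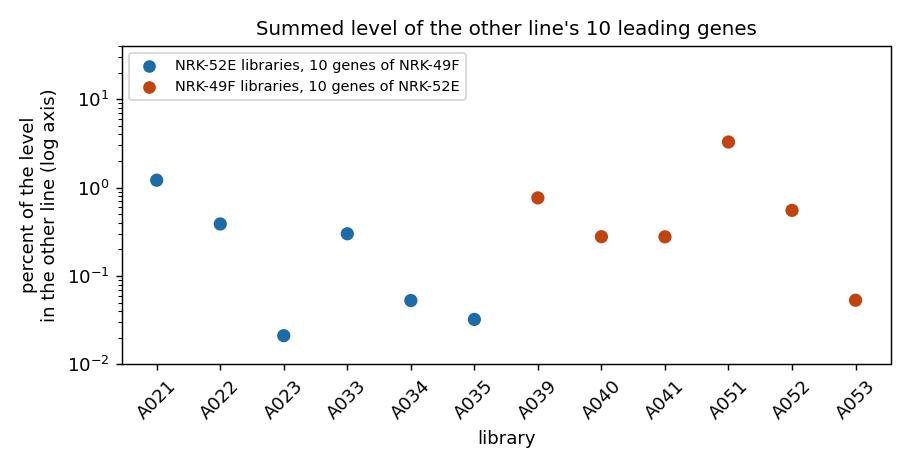
Each point is a library at pH 7.4 and gives the summed FPM of the 10 leading genes of the other line as a percentage of their mean in that line, on a log axis. The NRK-52E library A021 (1.21%) and the NRK-49F library A051 (3.28%) lie above the other libraries of their line.

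The lines differed in most genes that could be measured. The table lists 30452 genes. In the 12 samples, 21318 of them were detected with at least 1 count, and 14032 had enough counts to be tested. Of these, 9976 (71.1%) differed between the lines at an adjusted p under 0.05, 4949 (35.3%) with a higher level in NRK-52E and 5027 (35.8%) with a higher level in NRK-49F. In 7254 genes (51.7%) the values of both lines did not overlap. Since so many genes passed, a second test asked whether the difference was larger than 1 on the log2 scale, and 3550 genes (25.3%) passed it, 1737 (12.4%) higher in NRK-52E and 1813 (12.9%) higher in NRK-49F. Counts of genes in the lists below are to be read against these shares. The median log2 difference over all tested genes was 0.00499 and the median absolute difference was 0.578. With raw library sizes in place of TMM, the median moved to 0.20, and 61.6% of the calls were higher in NRK-52E in place of 49.6%.

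Among genes past the second test, 72 had a mean at least 100 times higher in NRK-52E and 239 had a mean at least 100 times higher in NRK-49F, with a line at or under 3 counts in every library set to 3 counts per library. These counts depended on the libraries with signal of the other line and were 121 and 212 without A021 and A051, and 124 and 241 without A051 alone. Of all tested genes, 190 stayed at or under 3 counts in every NRK-52E library and 128 in every NRK-49F library while being above it in the other line. Those with the highest lower bounds were RT1.Da (a chain of a class II molecule), Cdhr1 (a photoreceptor cadherin) and Sdk1 (an adhesion molecule) in NRK-49F, at least 157-fold, at least 156-fold and at least 147-fold higher against the level of 3 counts per library, and Pdlim3 (an actin-associated protein of muscle) and Shank3 (a scaffold protein of synapses) in NRK-52E, at least 61.2-fold and at least 57.9-fold higher. These 5 were chosen after their values were seen.

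**Figure D2:**
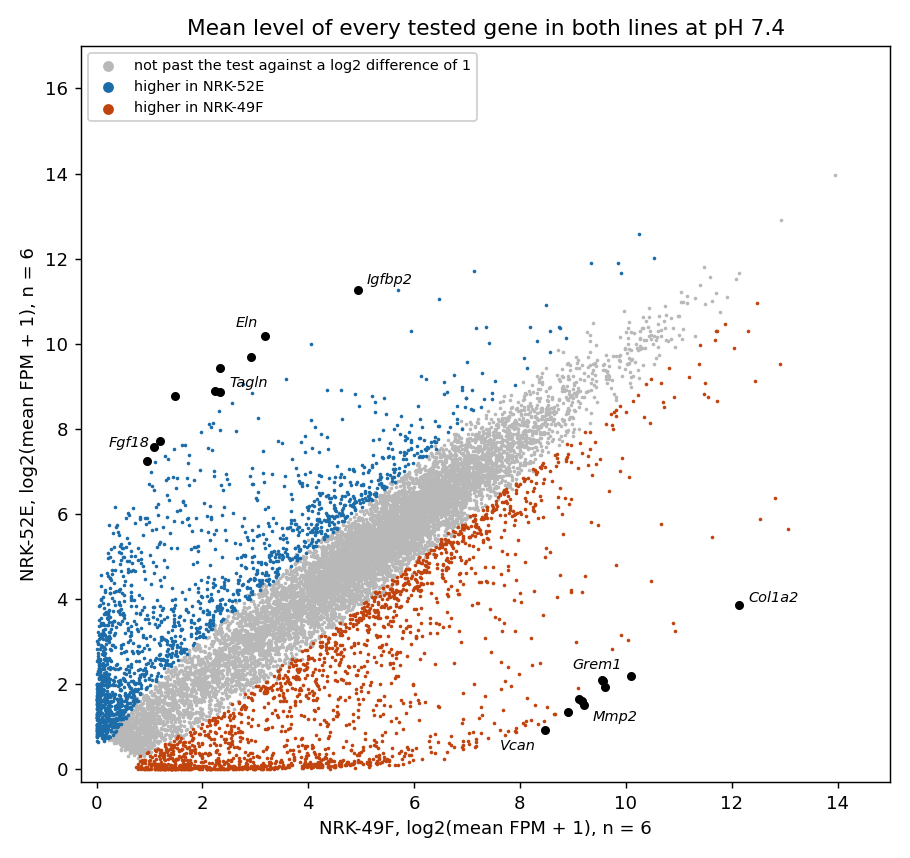
Each point is one of the 14032 tested genes, with its mean level in NRK-49F on the x axis and in NRK-52E on the y axis, both as log2(FPM + 1). Coloured genes passed the test against a log2 difference of 1 (1737 higher in NRK-52E, 1813 higher in NRK-49F), and black points are the 10 leading genes of each line.

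Of the 10 leading genes of NRK-52E, taken by the size of their difference, 9 are described here, which are Megf6, Eln, Serping1, Aldh1a2, Tagln, Fgf18, Arhgdib, Igfbp2 and Lingo1. Aldh1a2 (ENSRNOG00000055049), which makes retinoic acid, was at 430.1 to 507 FPM (median 492) in NRK-52E and at 0.0545 to 15.97 FPM (median 1.56) in NRK-49F. The lowest NRK-52E library lay far above the highest NRK-49F library, which was A051, and the mean was 128-fold higher in NRK-52E, or 383-fold without A021 and A051. Eln, the elastin of elastic fibres, had a mean of 1169 ± 105 FPM in NRK-52E and 8.11 ± 10.8 FPM in NRK-49F. Tagln, an actin-binding protein of smooth muscle, had 464 ± 119 FPM and 4.06 ± 4.26 FPM, and Fgf18, a secreted growth factor, had 208 ± 14.1 FPM and 1.31 ± 1.96 FPM. Igfbp2, which binds insulin-like growth factors, was at 2469 ± 1174 FPM in NRK-52E and at 29.7 ± 39.9 FPM in NRK-49F, where A051 alone held 109 FPM.

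The 10 leading genes of NRK-49F were Col1a2, Grem1, Mmp2, Col6a1, Ccn3, Cxcl12, Vcan, Tgfbi, Col6a2 and Mmp3, which code for matrix proteins, matrix proteases and secreted signals. Col1a2 (ENSRNOG00000011292), a chain of type I collagen, was at 3869.9 to 4936 FPM (median 4566) in NRK-49F and at 0.418 to 53.1 FPM (median 5.78) in NRK-52E. Its highest NRK-52E value was that of A021, and the mean was 334-fold higher in NRK-49F, or 806-fold without A021 and A051. Vcan, the large proteoglycan versican, was at 285 to 430.4 FPM (median 350.0) in NRK-49F and at 0 to 2.75 FPM (median 0.543) in NRK-52E. Mmp2 and Mmp3, proteases that cut matrix proteins, had means of 588 ± 42.96 FPM and 552 ± 80.02 FPM in NRK-49F and of 1.88 ± 2.30 FPM and 2.17 ± 2.42 FPM in NRK-52E. Grem1, a secreted inhibitor of BMP signals, was at 1097 ± 97.02 FPM in NRK-49F and at 3.55 ± 5.54 FPM in NRK-52E. All 20 genes passed the test against a log2 difference of 1 in edgeR, with adjusted p between 8.28e-09 (Col6a2) and 3.15e-05 (Igfbp2). They were picked by the size of their difference in the same samples, so this result is no separate support.

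For 12 of these 20 genes, the RefSeq table (assembly GRCr8) held the sequence from 250 bases before to 50 bases after the listed start site. Of these windows, 3 are shown as examples, and each of the 3 holds a marked match, which not all of the 12 do. Capitals mark the letters CCAAT and TATAAA on either strand. Aldh1a2 (chr8:80758391-80758690, plus strand) leads in NRK-52E, and Col1a2 (chr4:33518307-33518606, plus strand) and Mmp3 (chr8:12925031-12925330, plus strand) lead in NRK-49F:
Aldh1a2: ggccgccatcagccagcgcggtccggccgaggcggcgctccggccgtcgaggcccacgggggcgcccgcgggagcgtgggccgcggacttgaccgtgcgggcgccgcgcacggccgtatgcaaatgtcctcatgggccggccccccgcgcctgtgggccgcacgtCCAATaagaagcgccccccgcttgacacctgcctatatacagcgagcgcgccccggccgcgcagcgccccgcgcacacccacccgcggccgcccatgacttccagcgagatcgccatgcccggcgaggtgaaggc
Col1a2: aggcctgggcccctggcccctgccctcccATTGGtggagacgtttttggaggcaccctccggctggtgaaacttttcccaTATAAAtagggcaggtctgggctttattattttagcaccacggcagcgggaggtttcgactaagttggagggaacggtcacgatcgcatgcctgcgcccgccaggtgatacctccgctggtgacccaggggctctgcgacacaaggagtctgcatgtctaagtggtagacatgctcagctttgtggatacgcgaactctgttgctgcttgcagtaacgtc
Mmp3: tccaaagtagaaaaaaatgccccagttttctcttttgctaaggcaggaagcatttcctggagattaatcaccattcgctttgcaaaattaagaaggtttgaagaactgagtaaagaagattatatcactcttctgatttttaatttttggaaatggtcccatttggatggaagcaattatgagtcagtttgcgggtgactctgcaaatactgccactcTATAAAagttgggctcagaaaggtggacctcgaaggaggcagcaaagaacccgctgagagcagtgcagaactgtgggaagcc
TATAAA was found in 0 of 5 leading genes of NRK-52E and in 2 of 7 of NRK-49F, and CCAAT in 2 of 5 and in 3 of 7. Of all 33469 such windows of the rat, 14.2% hold TATAAA and 37.5% hold CCAAT. From the listed start site, TATAAA begins at -170 in Col1a2 and at -32 in Mmp3. The listed start site of Col1a2 falls on the letters atg, and whether transcription starts there cannot be told from the sequence. A match is a description of the letters and not of a site in use.

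The label of NRK-52E was then checked against epithelial markers, and the data go against it for most of them. The markers were not chosen by nephron segment. Of 20 markers, 18 are in the table, and 14 of them had means under 1 FPM in both lines and did not pass the filter. Cdh1 (ENSRNOG00000020151), which codes for E-cadherin, was at 0 to 0.266 FPM (median 0.193) in NRK-52E, which is at most 7 counts in a library, and at 0 to 0.106 FPM (median 0) in NRK-49F. Epcam, Cldn3, Cldn4, Cldn7, Krt18, Grhl2, Esrp1 and Cdh16 had means of at most 0.129 FPM in either line. Pax8, a transcription factor of the nephron, was at 0.0110 FPM in NRK-52E and at 0.480 FPM in NRK-49F.

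Of the 4 epithelial markers that could be tested, 2 were higher in each line, beside 35.3% of all tested genes higher in NRK-52E and 35.8% higher in NRK-49F. Krt7, a keratin of simple epithelia, was at 16.7 to 32.1 FPM (median 19.7) in NRK-52E and at 0.472 to 2.25 FPM (median 1.52) in NRK-49F, with no overlap. Cgn, the tight junction protein cingulin, was at 46.3 to 65.4 FPM (median 59.5) in NRK-52E and at 0.708 to 3.74 FPM (median 2.27) in NRK-49F, again with no overlap. The keratin Krt8 was present in both lines and higher in NRK-49F, with 847 ± 196 FPM against 500.1 ± 74.2 FPM (log2 difference -0.76 ± 0.14, edgeR's quasi-likelihood test, adjusted p = 1.95e-04). Dsp, the desmosome protein desmoplakin, was also higher in NRK-49F, with 57.3 ± 8.33 FPM against 5.36 ± 0.791 FPM (log2 difference -3.41 ± 0.13, adjusted p = 1.49e-11 by the same test). In the wider list of keratins, 7 did not pass the filter and 5 were tested. Krt7 and Krt80 were higher in NRK-52E and Krt8, Krt13 and Krt15 in NRK-49F, beside 35.3% and 35.8% of all tested genes. Krt80 was at 34.04 FPM in NRK-52E and 2.76 FPM in NRK-49F, and Krt13 at 1.13 and 6.25 FPM.

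**Figure D3:**
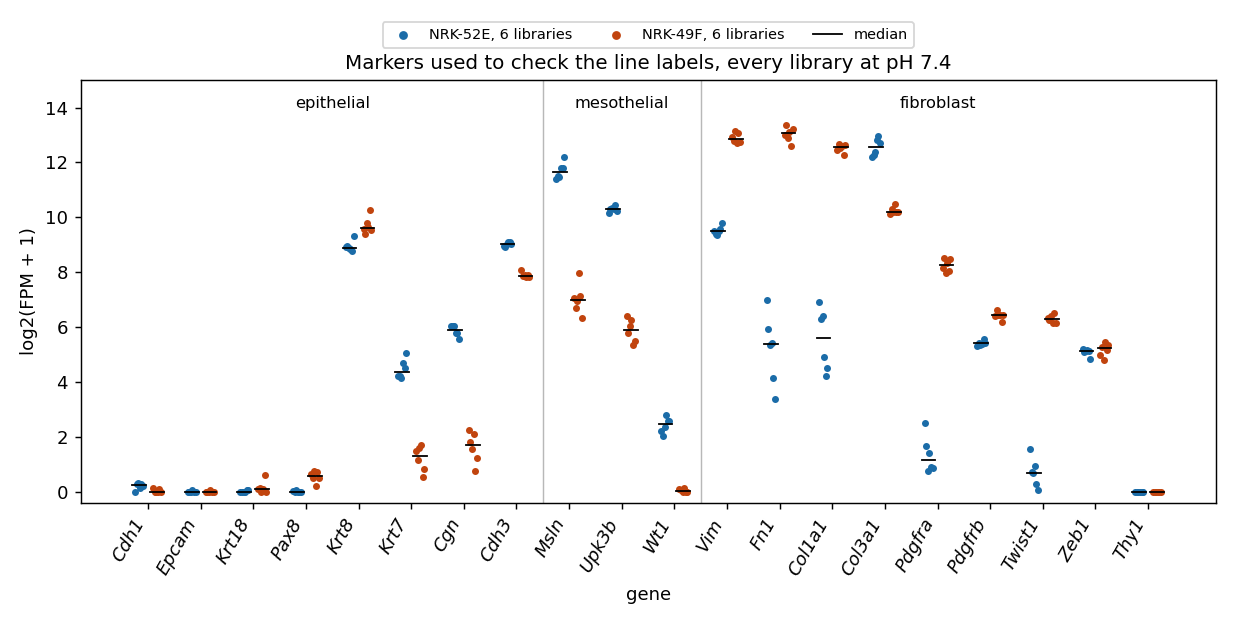
Each point is the level of a gene in a library at pH 7.4, as log2(FPM + 1), with NRK-52E in blue and NRK-49F in red, and black lines are medians over 6 libraries. Cdh1, Epcam, Krt18 and Thy1 lie near 0 in both lines, Msln, Upk3b and Wt1 are higher in NRK-52E, and Vim, Fn1, Col1a1, Pdgfra and Twist1 are higher in NRK-49F.

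Other parts of the junctions were present in NRK-52E. Of 42 genes of epithelial junctions and polarity, 21 were tested, and 17 were higher in NRK-52E and 4 in NRK-49F (35.3% and 35.8% of all tested genes), with a median log2 difference of 1.82 beside 0.00499 over all tested genes. F11r, the tight junction adhesion molecule JAM-A, was at 296 ± 21.8 FPM in NRK-52E and 15.5 ± 7.81 FPM in NRK-49F. Cgnl1 (paracingulin) and Marveld2 (tricellulin) had means of 127 ± 28.4 FPM and 35.96 ± 3.39 FPM in NRK-52E and of 1.05 ± 1.57 FPM and 0.414 ± 0.598 FPM in NRK-49F. Pkp2, a plakophilin of desmosomes, was at 59.3 FPM in NRK-52E and 2.67 FPM in NRK-49F, and Pard6b, a subunit of the polarity complex, at 118 and 10.8 FPM. Cdh3, which codes for P-cadherin, was high in both lines, at 487 to 555 FPM (median 526) in NRK-52E and 225 to 273 FPM (median 233) in NRK-49F, with a log2 difference of 1.14 ± 0.07. Thus both lines expressed P-cadherin, while E-cadherin was close to or under the limit of detection. Cdh2 (N-cadherin) was at 0.174 ± 0.312 FPM in NRK-52E and 43.6 ± 3.63 FPM in NRK-49F.

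Among 17 epithelial transcription and splicing factors, 10 did not pass the filter, including Grhl2, Ovol2, Esrp1 and Esrp2, and of the 7 tested, 5 were higher in NRK-52E and 1 in NRK-49F, beside 35.3% and 35.8% of all tested genes. Klf5, a factor of proliferating epithelia, was at 195 to 245 FPM (median 205) in NRK-52E and at 7.41 to 15.8 FPM (median 8.47) in NRK-49F. Foxa1, a pioneer factor of endodermal epithelia, was at 14.96 FPM in NRK-52E and 2.20 FPM in NRK-49F. Of 18 factors of kidney epithelia, 6 were tested. Of these, 4 (Emx2, Pou3f3, Tfcp2l1 and Gata3) were higher in NRK-52E and 1, Irx3, in NRK-49F, beside 35.3% and 35.8% of all tested genes. The median log2 difference of the 6 was 3.44. It was 0.68 when 10 counts were needed in every sample and -0.21 with no filter beyond 1 count. Emx2, a homeobox factor needed for the urogenital tract, was at 16.6 to 23.6 FPM (median 19.1) in NRK-52E and at 0 to 1.30 FPM (median 0.0401) in NRK-49F. Irx3 went the other way, with 15.7 to 21.5 FPM (median 16.9) in NRK-49F and 0 to 0.309 FPM (median 0.0726) in NRK-52E.

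Genes of the nephron segments were largely absent from both lines. Of 30 genes of the proximal tubule, 20 did not pass the filter, among them Slc34a1, Lrp2, Slc5a1 and Slc22a6, and of the 10 tested, 4 were higher in NRK-52E and 3 in NRK-49F, shares near the 35.3% and 35.8% of all tested genes. Aqp1, the water channel of the proximal tubule, was higher in the line labelled as fibroblasts, with 363 to 592 FPM (median 479) in NRK-49F and 65.4 to 78.6 FPM (median 75.8) in NRK-52E. Ggt1, an enzyme of the brush border, followed the same direction, at 52.4 against 9.27 FPM, and Anpep, an aminopeptidase, was at 31.9 FPM in NRK-52E and 19.2 FPM in NRK-49F. Of 26 genes of the loop of Henle and distal nephron in the table, 17 did not pass the filter, and of the 9 tested, 4 were higher in NRK-52E (Calb1, Trpm6, Aqp3 and Atp6v1b1) and 3 in NRK-49F. Among these, Aqp3, a water and glycerol channel, was at 9.44 FPM in NRK-52E and 1.26 FPM in NRK-49F, and Nr3c2, the mineralocorticoid receptor, at 0.283 and 16.4 FPM.

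Mesothelial genes were high in NRK-52E. In a list of 9 markers of podocytes and mesothelium, 8 are in the table and 4 were tested, and all 4, which are Msln, Upk3b, Lrrn4 and Wt1, were higher in NRK-52E, beside 35.3% of all tested genes. Msln (ENSRNOG00000019445), the surface protein mesothelin, was at 2707 to 4735 FPM (median 3211) in NRK-52E and at 80.04 to 253 FPM (median 128) in NRK-49F, with a log2 difference of 4.60 ± 0.27 (edgeR's test against a log2 difference of 1, adjusted p = 5.51e-09). Upk3b, a uroplakin of the mesothelium, was at 1136 to 1409 FPM (median 1269) in NRK-52E and at 40.1 to 84.3 FPM (median 58.9) in NRK-49F. For both genes the lines were far apart, and in the NRK-49F library A053, which held only 0.0531% of the signal of the other line, Msln still reached 80.04 FPM and Upk3b 43.8 FPM. Wt1, a zinc finger factor of mesothelium and podocytes, was at 3.15 to 5.91 FPM (median 4.53) in NRK-52E and at or under 3 counts in every NRK-49F library, so that its mean was at least 32.4-fold higher. Nphs1, the nephrin of podocytes, and Calb2, the calretinin of mesothelium, did not pass the filter, with means of at most 0.122 FPM. The summed level of the 8 genes ran from 4064.8 to 6123 FPM in NRK-52E and from 143 to 353 FPM in NRK-49F. Bnc1 and Tspan8, which were looked at after their values were seen, were at 99.8 and 2470.0 FPM in NRK-52E and at 10.6 and 50.5 FPM in NRK-49F. Gata4, a factor of heart and coelomic epithelium, did not differ by this test, with 28.2 ± 2.22 FPM and 25.5 ± 2.14 FPM (edgeR's quasi-likelihood test, adjusted p = 0.111).

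Aldh1a2 belongs to a wider set of retinoic acid genes, which was also put together after these values were known. Of 20 such genes, 11 were tested, 6 were higher in NRK-52E and 4 in NRK-49F, beside 35.3% and 35.8% of all tested genes. By the test against a log2 difference of 1, 3 were higher in NRK-52E and 0 in NRK-49F, beside 12.4% and 12.9%. Dhrs3, which turns retinal back into retinol, was at 101 FPM in NRK-52E and 57.9 FPM in NRK-49F, and Crabp2, which carries retinoic acid to its receptors, at 6.23 and 2.56 FPM. The receptor Rara was present in both lines and higher in NRK-49F, with a log2 difference of -0.73 ± 0.07, while Cyp26b1, which degrades retinoic acid, was at 1.37 FPM in NRK-52E and 0.460 FPM in NRK-49F.

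The label of NRK-49F was checked in the same way against 20 fibroblast markers, of which 18 were tested. Of these, 15 were higher in NRK-49F and 2, Col3a1 and Sparc, in NRK-52E (35.8% and 35.3% of all tested genes), with a median log2 difference of -6.47. Pdgfra, the PDGF receptor of mesenchymal cells, was at 253 to 370.2 FPM (median 304) in NRK-49F and at 0.684 to 4.75 FPM (median 1.26) in NRK-52E. Vim, the intermediate filament of mesenchymal cells, was at 6744 to 9119.7 FPM (median 7349) in NRK-49F and at 655 to 893 FPM (median 732) in NRK-52E, so that it was well expressed in both. Col1a1, a chain of type I collagen, was at 4916 to 6576 FPM (median 6092) in NRK-49F and at 17.8 to 121 FPM (median 53.03) in NRK-52E. Pdgfrb differed less, with 85.4 ± 8.53 FPM and 41.5 ± 2.46 FPM. Not detected were Thy1, a common surface marker of fibroblasts, with 0 counts in all 12 libraries, and, beyond 4 counts in a library, the fibroblast protease Fap. Dcn, the proteoglycan decorin, was at 4.03 ± 1.48 FPM in NRK-49F and at 0 counts in every NRK-52E library, and Lum, the proteoglycan lumican, was at 100.1 ± 32.7 FPM and 0.549 ± 0.929 FPM.

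In a list of 23 surface and secreted fibroblast markers, 21 were tested. Of these, 15 were higher in NRK-49F and 5 in NRK-52E, beside the same shares of all tested genes. The list is not separate from the markers above, since Pdgfra, Pdgfrb, Thy1, Fap, Vim, Dcn, Lum and Cdh11 are on both. Fn1, the matrix protein fibronectin, was at 6269 to 10656 FPM (median 8605) in NRK-49F and at 9.55 to 126 FPM (median 40.9) in NRK-52E. S100a4, a calcium-binding protein of fibroblasts, was at 1629 FPM in NRK-49F and 53.6 FPM in NRK-52E, and Cdh11, a cadherin of mesenchymal cells, at 144 and 0.630 FPM. In the other direction went Pdpn (podoplanin, made by podocytes and mesothelium among others), Mgp, Cd34, C3 and Ncam1. Pdpn was at 11.7 FPM in NRK-52E and 0.164 FPM in NRK-49F, and Ncam1, a neural cell adhesion molecule, at 102 and 54.4 FPM.

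Transcription factors of mesenchyme and stroma were mostly higher in NRK-49F. Of 38 such genes, 27 were tested, 18 were higher in NRK-49F and 6 in NRK-52E (35.8% and 35.3% of all tested genes), with a median log2 difference of -1.33. Prrx1 and Twist1, factors of limb and head mesenchyme, were at 158 to 231 FPM (median 197) and 69.6 to 90.5 FPM (median 77.3) in NRK-49F and at 0 to 2.89 FPM (median 0.434) and 0.0562 to 1.97 FPM (median 0.630) in NRK-52E. Zeb2, Lef1 and Prrx2 had means of 18.2, 16.7 and 79.04 FPM in NRK-49F and of 0.0776, 0.0575 and 0.326 FPM in NRK-52E. By contrast, Zeb1, a repressor of E-cadherin, was at 33.3 ± 3.02 FPM in NRK-52E and 35.6 ± 6.01 FPM in NRK-49F and did not pass the test (log2 difference -0.10 ± 0.11, edgeR's quasi-likelihood test, adjusted p = 0.427). Snai2 and Snai1, repressors of the same gene, were higher in NRK-49F, at 22.7 and 30.4 FPM against 1.48 and 5.76 FPM. Klf4 had 210.3 ± 29.5 FPM in NRK-49F and 3.25 ± 0.886 FPM in NRK-52E. Besides Wt1, the factors higher in NRK-52E were Meis2, Meis1, Tbx2, Tbx3 and Osr2, with Meis2 at 142 against 31.4 FPM. Foxd1 and Tcf21, factors of the renal stroma, did not pass the filter and had at most 1 count in a library.

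Both lines made matrix genes, but not the same ones. Of 14 fibrillar and microfibrillar collagens tested, 6 were higher in NRK-52E and 8 in NRK-49F, beside 35.3% and 35.8% of all tested genes. Col3a1, the chain of type III collagen, was at 4698 to 8039.7 FPM (median 6014) in NRK-52E and at 1116 to 1427 FPM (median 1179.8) in NRK-49F, the reverse of Col1a1 and Col1a2, and the values did not overlap (log2 difference 2.33 ± 0.14; edgeR's test against a log2 difference of 1, adjusted p = 1.27e-07). Col14a1, which decorates collagen fibrils, was at 607 FPM in NRK-52E and 68.7 FPM in NRK-49F, and Col8a2 at 82.7 and 7.06 FPM. The 3 chains of type VI collagen were far higher in NRK-49F, with Col6a1 at 775 against 2.81 FPM, Col6a2 at 748 against 3.26 FPM and Col6a3 at 30.7 against 0.133 FPM. Both lines held Col5a1, Col5a2 and Col16a1, with log2 differences of -0.86, 1.12 and 0.81.

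Elastic fibre genes divided between the lines. Mfap5, a microfibril protein, was at 776 to 1491 FPM (median 981) in NRK-52E and at 4.03 to 38.2 FPM (median 12.2) in NRK-49F, in the same direction as Eln, and Ltbp4, which helps to assemble elastin and holds latent TGF-beta, was at 3809 against 645 FPM. Yet Fbn1, the main microfibril protein fibrillin 1, was higher in NRK-49F, at 103 to 200.5 FPM (median 154) against 0.225 to 2.67 FPM (median 1.94) in NRK-52E, as were Emilin1, Fbln2 and Loxl1, the last at 601 against 22.4 FPM. Fbln5, which binds elastin, was only slightly higher in NRK-52E, with 265 ± 25.7 FPM against 229.8 ± 14.6 FPM, a call that was lost without A033, A034, A040 or A041 (log2 0.17 to 0.24 with a library left out), and the sign turned with sample groups 1 and 6 alone. Of all 33 matrix glycoproteins, proteoglycans and crosslinkers tested, 11 were higher in NRK-52E, which is near the share of all tested genes (35.3%), and 20 in NRK-49F (35.8% of all tested genes), with a median log2 difference of -1.19. The small proteoglycan Fmod (fibromodulin) was at 388 FPM in NRK-52E and 4.86 FPM in NRK-49F, whereas Bgn (biglycan) was at 1259 and 5079 FPM. Tnc and Thbs2, matrix proteins of wounds, were at 543 and 324 FPM in NRK-49F and at 2.79 and 1.10 FPM in NRK-52E.

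In the basement membrane list, 7 of 18 tested genes were higher in NRK-52E, near the 35.3% of all tested genes, and 10 in NRK-49F, beside 35.8%. Those of NRK-52E included the laminin chains Lama5, Lamb2 and Lamc1, which together form a laminin of kidney basement membranes, at 1256, 1936 and 691 FPM against 381, 357 and 359 FPM. Agrn, the proteoglycan agrin, was at 1436 to 2671 FPM (median 2178) in NRK-52E and at 63.5 to 132 FPM (median 85.9) in NRK-49F, with no overlap. Among the type IV collagens, Col4a5 and Col4a4 were higher in NRK-52E, at 551 and 13.2 FPM against 93.7 and 0.576 FPM. Col4a1 and Col4a2, the chains of most basement membranes, were higher in NRK-49F, with log2 differences of -1.94 ± 0.11 and -1.21 ± 0.10. Nid1 and Lama4, the latter a laminin chain of mesenchymal and vascular basement membranes, were at 103 and 39.4 FPM in NRK-49F and at 0.722 and 0.196 FPM in NRK-52E.

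Of the matrix metalloproteinases and their inhibitors, a list made after values were seen, 16 were tested, 11 were higher in NRK-49F and 3 in NRK-52E, beside 35.8% and 35.3% of all tested genes. Besides Mmp2 and Mmp3, Mmp9, Mmp16 and Mmp19 were at 14.9, 17.2 and 172 FPM in NRK-49F and at 0.259, 0.234 and 12.6 FPM in NRK-52E. Mmp28 and Mmp15 went the other way, with 71.7 and 4.07 FPM in NRK-52E and 27.5 and 0.711 FPM in NRK-49F. The inhibitor Timp1 did not pass the test, at 138 ± 38.6 FPM and 161 ± 31.1 FPM (edgeR's quasi-likelihood test, adjusted p = 0.235). Without A035 it passed, with a log2 difference of -0.39.

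Contractile genes, which are often used to name myofibroblasts, were listed together with mural cell genes such as Cspg4, Rgs5, Mcam and Notch3. Of 17 tested genes of this list, 10 were higher in NRK-52E and 4 in NRK-49F (35.3% and 35.8% of all tested genes). The median log2 difference of the list was 1.05. Acta2, the alpha actin of smooth muscle, was at 178 to 371 FPM (median 236) in NRK-52E and at 2.89 to 8.79 FPM (median 5.01) in NRK-49F, a 47.2-fold difference of the means (57.7-fold without A021 and A051). Myl9 and Smtn were at 7.54 and 164 FPM in NRK-52E and at 0.174 and 45.1 FPM in NRK-49F. The tropomyosins differed from each other, with Tpm1 at 1336 against 425 FPM and Tpm2 at 242 against 602 FPM. Cnn1 and Myocd, the latter the coactivator of the smooth muscle programme, did not pass the filter, and Des did not differ by the test (adjusted p = 0.433, edgeR's quasi-likelihood test).

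Of 45 growth factor ligands tested, 16 were higher in NRK-52E, near the share of all tested genes (35.3%), and 22 in NRK-49F, beside 35.8%. Pdgfb, a ligand of both PDGF receptors, was at 25.96 to 65.8 FPM (median 45.5) in NRK-52E and at 0 to 0.650 FPM (median 0.212) in NRK-49F, while the receptor gene Pdgfra was higher in NRK-49F, as given above. Fgf10 and Fgf7, ligands of mesenchyme that act on epithelial FGFR2, were at 9.09 and 77.6 FPM in NRK-49F and at 0.0274 and 10.8 FPM in NRK-52E. Their receptor gene Fgfr2 was at 63.5 to 80.3 FPM (median 67.6) in NRK-49F and at 0 to 0.618 FPM (median 0.114) in NRK-52E, so that the receptor and both ligands were higher in the same line. The table counts whole genes and does not tell the epithelial from the mesenchymal splice form of Fgfr2. Gas6 and its receptor Axl were both higher in NRK-49F, at 1412 and 351 FPM against 280.3 and 1.19 FPM. Tgfb1 was at 35.8 ± 8.10 FPM in NRK-52E and 105 ± 17.5 FPM in NRK-49F, while Tgfb3 and Tgfbr1 did not pass the test (edgeR's quasi-likelihood test, adjusted p = 0.241 for Tgfb3 and 0.592 for Tgfbr1).

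Of 31 growth factor receptors tested, 12 were higher in NRK-52E and 14 in NRK-49F, not far from the 35.3% and 35.8% of all tested genes, and the larger count passed to NRK-52E with raw library sizes and when genes needed 10 counts in every sample. The receptors of NRK-52E included Egfr at 28.4 to 54.5 FPM (median 40.3) against 5.52 to 8.72 FPM (median 6.56) in NRK-49F. Met (the HGF receptor) and Mst1r (its relative RON) were at 159 and 75.4 FPM in NRK-52E and at 41.3 and 3.11 FPM in NRK-49F, and Erbb3 at 11.8 and 0.420 FPM. Besides Pdgfra, Fgfr2 and Axl, the receptors of NRK-49F included the collagen receptor Ddr2 and the Wnt receptor Ror2, at 175 and 238 FPM against 5.73 and 0.867 FPM. Ddr1, the collagen receptor of epithelia, was at 325 FPM in NRK-52E and 202 FPM in NRK-49F. Among 14 integrins tested, 4 were higher in NRK-52E (Itgb8, Itga7, Itgb1 and Itga6) and 8 in NRK-49F (35.3% and 35.8% of all tested genes), with the collagen-binding Itga11 at 57.8 to 107 FPM (median 84.6) in NRK-49F and 0.112 to 1.26 FPM (median 0.802) in NRK-52E and Itgb3 at 16.6 against 0.0898 FPM. The call of Itga6 was lost without A033, A039, A041 or A052 (log2 0.29 to 0.44 with a library left out).

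Most of the chemokines and cytokines tested were higher in NRK-49F. Of 21 chemokines and cytokines tested, 16 were higher in NRK-49F and 3 (Csf3, Il15 and Cx3cl1) in NRK-52E, beside 35.8% and 35.3% of all tested genes, with a median log2 difference of -3.79. Ccl2, which draws monocytes, was at 240.2 to 318 FPM (median 265) in NRK-49F and at 0 to 3.46 FPM (median 0.355) in NRK-52E. Il33, an alarmin cytokine, was at 903 to 1033 FPM (median 964) in NRK-49F and at 3.48 to 17.5 FPM (median 5.71) in NRK-52E. Both genes were without overlap, and for Ccl2 the highest NRK-52E library was A021, with 3.46 FPM. Cxcl12, the chemokine of stromal cells, was at 481 against 1.56 FPM, Ccl7 at 181 against 1.14 FPM and Csf1, the growth factor of macrophages, at 450.4 against 45.4 FPM. Il15 went the other way, with 48.2 FPM in NRK-52E and 13.8 FPM in NRK-49F.

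Most of the genes tested that are known as marks of tubule injury were also higher in NRK-49F. Of 15 genes, 12 were tested, 10 were higher in NRK-49F and 0 in NRK-52E (35.8% and 35.3% of all tested genes), and Timp1 and Sox4 did not pass. Spp1 (osteopontin) was at 1678 to 2224 FPM (median 1826) in NRK-49F and at 0.787 to 25.9 FPM (median 5.81) in NRK-52E. Vcam1, an adhesion molecule that is also on the list of fibroblast surface markers, was at 274 against 1.21 FPM, and Sox9 and Cd44 at 23.1 and 155 against 0.0827 and 1.44 FPM. Havcr1 (KIM-1) had 0 counts in all 12 libraries. Cdkn1a, the cell cycle inhibitor p21, was at 274 to 331 FPM (median 311) in NRK-49F and at 13.3 to 21.8 FPM (median 17.4) in NRK-52E, with no overlap.

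Cdkn1a is a target of p53, and other targets of p53 were looked at afterwards. Of 17 tested, 14 were higher in NRK-49F and 2 (Btg2 and Sesn2) in NRK-52E (35.8% and 35.3% of all tested genes), with a median log2 difference of -1.37 beside 0.00499 over all tested genes. Mdm2, the inhibitor of p53, was at 53.2 to 59.9 FPM (median 55.6) in NRK-52E and at 131 to 146 FPM (median 136) in NRK-49F. Phlda3, Fas and Eda2r were at 378, 42.4 and 10.4 FPM in NRK-49F and at 33.3, 1.87 and 0.124 FPM in NRK-52E. Bax, by comparison, had 67.2 and 92.6 FPM, a log2 difference of -0.46 ± 0.11.

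Genes of antigen presentation by class II molecules, a further set chosen after its values were seen, were higher in NRK-49F in 8 of 8 genes, beside 35.8% of all tested genes, with no overlap in 7 of them, beside 51.7%. Ciita, the activator of these genes, was at 7.68 to 10.5 FPM (median 9.71) in NRK-49F and at 0.0562 to 0.225 FPM (median 0.150) in NRK-52E. Cd74, the invariant chain, was at 103 to 177 FPM (median 136) in NRK-49F and at 0.0562 to 2.44 FPM (median 0.414) in NRK-52E. The class II chains RT1.Da, RT1.Db1, RT1.Ba and RT1.Bb had means of 21.7, 50.5, 27.2 and 7.86 FPM in NRK-49F and of at most 0.0964 FPM in NRK-52E. The class II chains are close relatives and reads that map to several places were counted, so reads can be shared among them. In the list of 12 leukocyte markers, 6 were tested. Of these, 3 were higher in NRK-52E and 2 in NRK-49F, beside 35.3% and 35.8% of all tested genes. Ptprc, the defining surface protein CD45, had at most 6 counts in a library and Tyrobp had 0 counts in all 12. The summed level of the list was 89.4 to 118 FPM in NRK-52E and 162 to 174 FPM in NRK-49F, most of it from Cd14, which was present in both lines at 95.7 and 101 FPM.

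Among 12 endothelial markers, 5 were tested. Of these, 2 (Tek and Tie1) were higher in NRK-52E and 3 (Egfl7, Vwf and Erg) in NRK-49F, beside 35.3% and 35.8% of all tested genes. Tek, the angiopoietin receptor, was at 14.3 ± 4.05 FPM in NRK-52E and 0.339 ± 0.256 FPM in NRK-49F. Pecam1, Cdh5 and Kdr, the defining endothelial markers, did not pass the filter. Kdr had 0 counts in all 12 libraries, Cdh5 had at most 3 counts in a library, and Pecam1 had means of 0.0563 FPM in NRK-52E and 0.455 FPM in NRK-49F. The summed level of the list was 16.9 to 28.3 FPM in NRK-52E and 41.9 to 61.1 FPM in NRK-49F.

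Since the study exposed these cells to acid, genes of acid-base transport and proton sensing at pH 7.4 describe where the lines started. Of 26 tested, 14 were higher in NRK-52E and 7 in NRK-49F (35.3% and 35.8% of all tested genes), with a median log2 difference of 0.62. Ca9, a carbonic anhydrase on the outer cell surface, was at 1212 to 1499 FPM (median 1279) in NRK-52E and at 127 to 157 FPM (median 144) in NRK-49F, with no overlap (log2 difference 3.21 ± 0.08; edgeR's test against a log2 difference of 1, adjusted p = 9.71e-12). Slc16a1, the lactate and proton transporter MCT1, was at 411 to 516 FPM (median 428) in NRK-52E and at 83.00 to 104 FPM (median 92.4) in NRK-49F. Its chaperone Bsg (basigin) was higher in the same line, at 3824 ± 747 FPM against 918 ± 146 FPM. Bicarbonate transporters of the sodium-coupled kind were higher in NRK-49F for Slc4a4 and Slc4a7, at 7.93 and 17.1 against 0.0736 and 2.92 FPM, and in NRK-52E for Slc4a10, at 8.52 against 3.28 FPM. The anion exchanger Slc4a2 did not differ by the test (log2 difference 0.02 ± 0.06; edgeR's quasi-likelihood test, adjusted p = 0.776). Of the proton-sensing receptors, Gpr4 was at 4.52 FPM in NRK-52E and 0.115 FPM in NRK-49F, and Gpr65 and Gpr132 did not pass the filter.

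Hox genes, which keep a record of the position along the body axis, were expressed in both lines. Of 39 genes, 34 were tested, 21 were higher in NRK-52E and 8 in NRK-49F (35.3% and 35.8% of all tested genes), with a median log2 difference of 0.71. Hoxa9 and Hoxa10 were at 264 to 323 FPM (median 299.8) and 281 to 321 FPM (median 299) in NRK-52E and at 59.1 to 76.00 FPM (median 67.7) and 94.9 to 119.8 FPM (median 112) in NRK-49F. Most of the differences were small, and 7 genes in NRK-52E and 5 in NRK-49F passed the test against a log2 difference of 1, beside 12.4% and 12.9% of all tested genes. Those of NRK-49F were Hoxb7, Hoxb8, Hoxb9, Hoxb13 and Hoxd11. Hoxb7 was at 32.1 to 50.2 FPM (median 39.1) in NRK-49F and at 5.95 to 6.86 FPM (median 6.14) in NRK-52E, and Hoxd11, a gene of the metanephric kidney, was at 6.07 to 7.41 FPM (median 6.93) in NRK-49F and at 0 to 0.169 FPM (median 0.0271) in NRK-52E. With Hoxd9 at 69.3 and 40.6 FPM and Hoxd10 at 12.3 and 7.66 FPM, neighbours of Hoxd11 in the same cluster were higher in NRK-52E.

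Imprinted genes, of which 1 parental copy is silent in most tissues, included large differences. Of 10 tested, 2 were higher in NRK-52E (Plagl1 and Usp29) and 5 in NRK-49F, beside 35.3% and 35.8% of all tested genes. Plagl1, a paternally expressed zinc finger gene, was at 132 to 321 FPM (median 273) in NRK-52E and at 0.809 to 13.9 FPM (median 2.36) in NRK-49F. Peg10, another paternally expressed gene, was at 138 to 348 FPM (median 219.5) in NRK-49F and at 0 to 1.69 FPM (median 0.915) in NRK-52E. Its neighbour Sgce was at 218 FPM in NRK-49F and 102 FPM in NRK-52E, and the neighbouring pair Slc22a18 and Phlda2 at 77.9 and 13.5 FPM in NRK-49F and at 0.431 and 0.224 FPM in NRK-52E. Igf2, H19 and Dlk1 did not pass the filter. Of 6 sex-linked genes tested, 5 were higher in NRK-52E and 1 in NRK-49F, beside 35.3% and 35.8% of all tested genes. None passed the test against a log2 difference of 1, beside 12.4% and 12.9%. The Y-linked genes Kdm5d, Uty and Eif2s3y were expressed in both lines, at 54.8, 22.8 and 64.9 FPM in NRK-52E and at 41.5, 13.8 and 101 FPM in NRK-49F. The call of Kdm5d was lost when any 1 of 8 libraries was left out (log2 0.32 to 0.51 with a library left out).

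By chromosome, the median log2 difference lay between -0.14 on chromosomes 4 and 20 and 0.25 on chromosome 16, apart from the Y chromosome with 7 tested genes. On chromosome 16, 47.1% of 397 tested genes were higher in NRK-52E and 32.5% in NRK-49F, beside 35.3% and 35.8% over all genes. On chromosome 2, the shares of 908 genes were 41.6% and 27.9%, and on the X chromosome the shares of 476 genes were 42.4% and 28.6%. At pH 6.0 the medians of chromosomes 16, 2 and X were 0.20, 0.10 and 0.15. With genes under 5 FPM left out, the median of chromosome 16 was 0.09, that of chromosome 2 was 0.12 and that of the X chromosome 0.17. Other chromosomes leaned to NRK-49F. On chromosome 4, 33.5% of 801 tested genes were higher in NRK-52E and 44.8% in NRK-49F, and on chromosome 20, 28.6% and 41.5% of 402. Their medians were -0.23 and -0.17 at pH 6.0, and -0.21 and -0.17 with genes under 5 FPM left out.

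**Figure D4:**
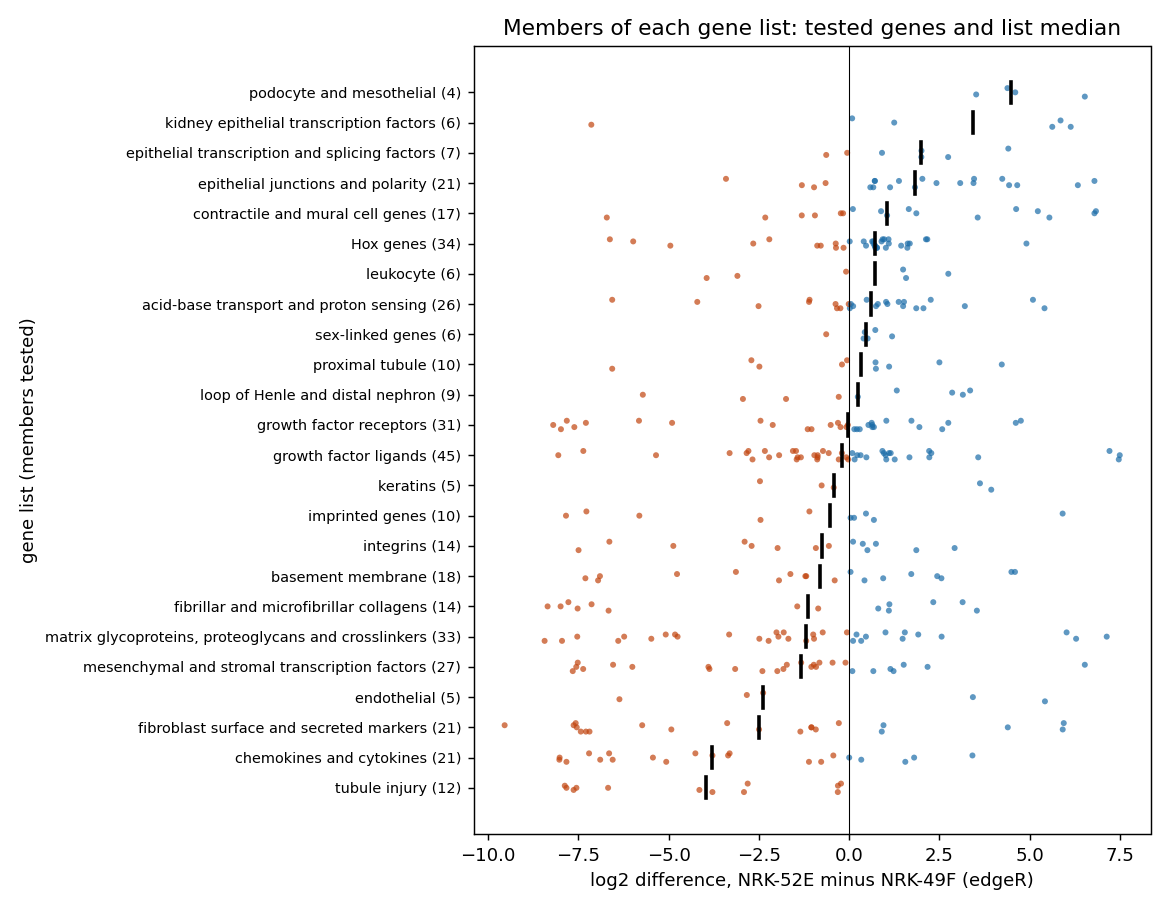
Each point is the log2 difference (NRK-52E minus NRK-49F) of a tested member of a gene list, blue where above 0 and red where below, and black bars are list medians, with the number of tested members in brackets. Lists of kidney and other epithelial factors, of junctions, and of podocyte and mesothelial genes lie to the right. Lists of injury, chemokine and fibroblast genes lie to the left, while most lists hold members on both sides.

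The same contrast in the 11 samples at pH 6.0 gave 10152 of 13786 tested genes (73.6%) as different between the lines. Of 9514 genes called at pH 7.4 and also tested at pH 6.0, 7256 (76.3%) differed in the same direction at pH 6.0, 549 (5.77%) differed in the opposite direction and 1709 did not pass. Of the 3194 that had passed the test against a log2 difference of 1, 3007 (94.1%) differed in the same direction, 32 in the opposite direction and 155 did not pass. All 20 leading genes kept their direction at pH 6.0, with log2 differences of 7.64 for Eln, -13.08 for Col1a2 and -14.86 for Vcan. Values as large as those of Col1a2 and Vcan rest on low counts in NRK-52E, so they give the direction and no measured fold. In the pH 6.0 libraries of NRK-52E, the leading genes of NRK-49F reached 0.00953% to 0.0287% of their NRK-49F level at pH 7.4, less than in 5 of the 6 libraries at pH 7.4, and the part of this in the larger values at pH 6.0 was not tested.

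The size of the line difference itself depended on pH for many genes. The interaction of line and pH, fitted on all 23 samples, passed the threshold for 6120 of 14777 genes (41.4%), with the larger absolute difference at pH 6.0 for 4446 and at pH 7.4 for 1674. Among the 9704 genes with means of at least 5 FPM in both lines, it passed for 4441 (45.8%), with the larger difference at pH 6.0 for 3269 and at pH 7.4 for 1172. In 565 genes both differences passed and had opposite signs.

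Those with the largest interaction included Cyp51 and Fads2, genes of sterol and fatty acid metabolism. Cyp51, an enzyme of cholesterol synthesis, was at 43.5 ± 16.05 FPM in NRK-52E and 120.3 ± 18.3 FPM in NRK-49F at pH 7.4, and its log2 difference moved from -1.47 to 1.51 at pH 6.0 (interaction -2.96 ± 0.30, edgeR's quasi-likelihood test, adjusted p = 5.47e-08). Fads2, a fatty acid desaturase, moved from -0.61 to 2.18. Ccng1 and Plk2, both on the list of p53 targets, moved from -2.33 and -1.03 at pH 7.4 to 0.53 and 1.88 at pH 6.0. In the other direction, Ampd3, an AMP deaminase, was at 8.04 to 13.1 FPM (median 11.9) in NRK-52E and 1.13 to 3.73 FPM (median 1.42) in NRK-49F at pH 7.4, and its log2 difference moved from 2.71 to -2.73 (interaction 5.45 ± 0.45, adjusted p = 1.84e-09 by the same test). Fgf1, Lmcd1, Mmd and Lgi4 followed, from 2.22, 1.07, 1.53 and 1.23 at pH 7.4 to -1.28, -2.39, -1.86 and -1.86 at pH 6.0.

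**Figure D5:**
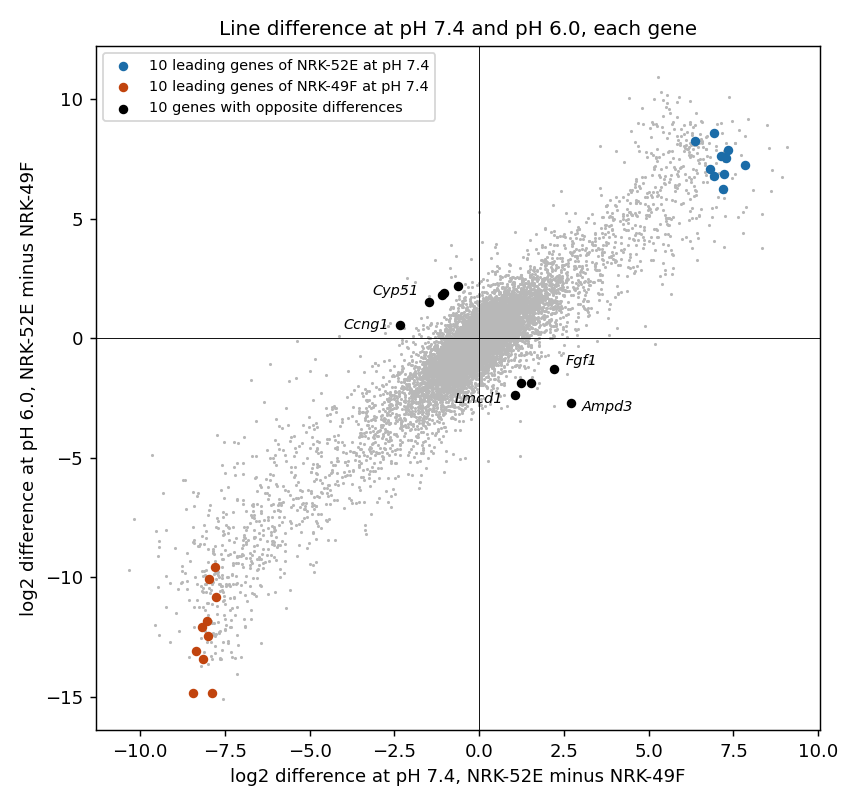
Each point is a gene tested at both pH values, with the log2 difference between the lines at pH 7.4 on the x axis and at pH 6.0 on the y axis. The leading genes of both lines lie in the same quadrant at both pH values, and the 10 black genes changed sign, among them Cyp51 (from -1.47 to 1.51) and Ampd3 (from 2.71 to -2.73).

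Within a line, the labels place the samples in 2 sample groups of 3, whose meaning is not given. Groups 1 and 3 hold only NRK-52E, and groups 4 and 6 hold only NRK-49F. An effect of these groups can therefore not be separated from the difference between the lines. The comparison of the lines took the 6 samples of each line as independent. In NRK-52E, 335 of 14793 genes (2.26%) differed between sample groups 3 and 1, with 137 higher in group 3 and 198 in group 1. This count was not stable, with 967 genes by DESeq2 and 179, 95, 219, 154 and 130 genes without A021, A022, A023, A033 and A034. The 3 genes with the largest difference were Ccn3, Tcim and Rab3il1, with log2 differences (group 3 minus group 1) of -6.22, -6.11 and -5.91. All 3 are genes of NRK-49F, with means of 578, 18.5 and 19.8 FPM there and 2.07, 0.178 and 0.157 FPM in NRK-52E. The summed signal of the other line was highest in A021 (1.21%) and A022 (0.387%) of group 1, with A033 of group 3 at 0.300%. By the median over the 10 leading genes, A033 was at 0.397% and A022 at 0.380%. The part of this signal in these differences was not tested. Of the 335 genes, 38 had means at least 10 times higher in NRK-49F, and 36 of these were higher in group 1. Of the other 297, 162 were higher in group 1 and 135 in group 3. The share of all tested genes with means at least 10 times higher in NRK-49F is not given here. In NRK-49F, 0 genes differed between sample groups 6 and 4 by edgeR's quasi-likelihood test, and DESeq2 and edgeR's likelihood ratio test called 10 and 19. By the quasi-likelihood test, 493 of 14793 genes had an unadjusted p under 0.05 in NRK-49F, beside 2663 in NRK-52E.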

How the data were processed

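RNA of 23 rat samples was sequenced, and the 12 at pH 7.4 are compared here. Per the labels and the methods, the authors enriched poly(A) RNA, aligned reads with HISAT2 2.1.0 and counted reads per gene with featureCounts, including reads that map to several places. Reads of related genes can thus be shared, and whether strand was used is not given in the sources used here. The deposited values are whole-number counts per gene with symbols. The genome build is rn6 in the labels and another one in the methods, so no coordinates are taken from the files. A further 13 columns could not be matched to a label and were not used. Depth ranged from 16412564 to 34250535 counts per library, and 3 counts were taken as the limit of detection, which covers counting error only.

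Counts were analysed with edgeR 4.0.16 (limma 3.58.1, R 4.3.3), filterByExpr with a minimum count of 10, TMM scaling and the quasi-likelihood test, with Benjamini-Hochberg adjustment over all tested genes and a threshold of 0.05. The test against a log2 difference of 1 was edgeR's glmTreat. The steps were run on simulated data in which only a small share of genes differed, equally in both directions. Such data cannot test the scaling where most genes differ, as they do between these lines. DESeq2 1.42.0 was an alternative, beside other scalings, filters, thresholds, tests and subsets of samples, depth thinned to the smallest library, and each library left out. Named genes were the 10 each way with the largest difference of log2(mean FPM + 1) and no overlap (mean of at least 5 FPM), members of gene lists, the 5 each way whose sign changed with pH with the largest interaction, and the 3 with the largest difference between sample groups. The lists and genes were chosen with earlier results of these data known. The lists of retinoic acid, p53, metalloproteinase and class II genes, and single genes said to be so, were added after their values were seen. FPM are counts per 1000000 scaled by TMM. Gene lengths were not used. Results of some genes are not reported here. Figures were drawn with matplotlib 3.10.9.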

Additional observations from a re-analysis of the deposited data

Results flagged for a closer look

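Screened for single libraries far from the rest of their line were the levels of the leading genes of both lines, of the genes whose direction changed with pH and of those that differed most between sample groups, the signal of the other line and the total counts. By Dixon's test, 19 of 64 values stood apart, where chance flags about 1 in 20. In NRK-49F, library A051 was the high one for the leading genes of NRK-52E, with 17.2 FPM of Megf6, 29.7 of Eln, 26.8 of Serping1, 15.97 of Aldh1a2, 12.6 of Tagln, 5.27 of Fgf18, 5.12 of Arhgdib, 109 of Igfbp2 and 3.74 of Lingo1, and for the summed signal of the other line, with 3.28%. In NRK-52E, library A021 was the high one for the leading genes of NRK-49F, with 53.1 FPM of Col1a2, 14.2 of Grem1, 9.67 of Col6a1, 7.42 of Cxcl12 and 10.8 of Tgfbi, and for the summed signal of the other line, with 1.21%. These genes are those of which that signal is made, so the values are not separate observations, and where the signal comes from was not tested.

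The other libraries that stood apart did so for single genes. The NRK-52E library A035 was high for Arhgdib, with 244 FPM, and low for Ampd3, with 8.04 FPM. The NRK-49F library A040 was high for Ampd3, with 3.73 FPM.

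For 9 of the named genes the difference between the lines at pH 7.4 and that at pH 6.0 had opposite signs, and the interaction passed edgeR's quasi-likelihood test. As log2 (pH 7.4 minus pH 6.0), it was -2.96 for Cyp51, -2.89 for Plk2, -2.85 for Ccng1 and -2.78 for Fads2. It was 5.45 for Ampd3, 3.51 for Fgf1, 3.48 for Lmcd1, 3.41 for Mmd and 3.11 for Lgi4. These genes were named for their change of sign and the size of their interaction in the same samples, so this result is no separate support.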

How the results depend on the processing

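No gene called different between the lines was called in the opposite direction under any alternative, and the share of calls kept in the same direction ran from 74.3% (sample groups 3 and 6 only) to 99.9% (DESeq2). When 10 counts were needed in every sample, which drops genes silent in a line, 877 genes were higher in NRK-52E and 984 in NRK-49F by the test against a log2 difference of 1, in place of 1737 and 1813. With raw library sizes the median log2 difference moved from 0.00499 to 0.20 and the calls higher in NRK-52E from 49.6% to 61.6%. Without A021 and A051, an alternative chosen after seeing the data, 9318 genes were called and 92.7% of the calls were kept. The genes with means at least 100 times higher were 54 to 124 in NRK-52E and 212 to 241 in NRK-49F with each library left out of the means in turn, in place of 72 and 239, and the highest count of NRK-52E was that without A051. Leaving out each library in turn gave 4782 to 5239 genes higher in NRK-52E and 4893 to 5349 higher in NRK-49F, 1687 to 1828 and 1781 to 1887 by the test against a log2 difference of 1, and 5772 to 6150 genes with an interaction. The sample group difference in NRK-52E depended on the method, with 101 genes at an adjusted p under 0.01, 936 by the likelihood ratio test and 967 by DESeq2 in place of 335, and 95 (without A022) to 497 (without the NRK-49F library A052) with a library left out; the cause was not tested. In NRK-49F it gave 0 genes, 19 by the likelihood ratio test and 10 by DESeq2, and 0 with each library left out. Of 24 gene lists, 11 had more members higher in NRK-52E, also with each library left out, and the larger count changed line for the growth factor receptors (raw library sizes, and 10 counts in every sample), the keratins (no filter, and sample groups 1 and 4), the fibrillar collagens and the leukocyte markers (10 counts in every sample). Among named genes, the difference changed sign for Actb with raw library sizes (log2 0.18) and for Fbln5 with sample groups 1 and 6 alone (log2 -0.022). With a single library left out, 4 named genes changed their side of the threshold, with log2 differences of 0.17 to 0.24 for Fbln5, 0.29 to 0.44 for Itga6, 0.32 to 0.51 for Kdm5d and -0.39 to -0.14 for Timp1. Of 6606 values of 231 named genes under all alternatives, 45 lost the call and 6 gained it. No paired analysis was possible because the groups share no replicate numbers. Depth limits detection to about 3 counts per library.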

Other observations

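Some genes that stood out in the comparison belong to none of the gene groups above and were chosen after their values were seen. Hmga2, a chromatin protein of embryonic and proliferating cells, was at 5.93 to 13.4 FPM (median 8.38) in NRK-49F and at 0 to 0.281 FPM (median 0.0570) in NRK-52E. Lgals1, the lectin galectin 1, was at 3399 ± 799 FPM in NRK-49F and 404 ± 122 FPM in NRK-52E, and Serpine2, an inhibitor of serine proteases, at 3151 ± 182 FPM and 43.04 ± 14.1 FPM. Dkk3, a secreted member of the Dickkopf family, was at 265 ± 13.1 FPM in NRK-49F and 1.14 ± 1.48 FPM in NRK-52E. Aldh3a1, an aldehyde dehydrogenase, was at 7248 FPM in NRK-49F and 82.8 FPM in NRK-52E. App, the amyloid precursor protein, was at 3267 ± 336 FPM in NRK-52E and 962 ± 63.9 FPM in NRK-49F. Of 2 genes often used as references in PCR, Gapdh had a log2 difference of -1.97 ± 0.14 and Actb, whose sign turned with raw library sizes, one of -0.01 ± 0.10 (edgeR's quasi-likelihood test, adjusted p = 1.04e-08 and 0.929).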
